A study of Mus musculus with 45 samples.

Results

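Microglia sorted from mouse brain slices that had been treated with tumour necrosis factor (TNF) were compared directly with microglia from slices treated with granulocyte-macrophage colony-stimulating factor (GM-CSF). The comparison used 20 of the 45 samples of the study, 11 libraries from TNF slices and 9 from GM-CSF slices, taken as all slice libraries that the labels assign to either cytokine. A further 9 slice libraries kept in medium for the same time served only as a level reference, to tell which cytokine had moved a gene. All 3 groups came from brain slices of neonatal C57BL/6 mice that had been cultured for 2 weeks and then moved to fresh medium, with TNF at 50 ng/mL, with GM-CSF at 20 ng/mL or with neither, for 24 hours. The medium of every group held horse serum and human platelet-derived growth factor. Cells were sorted as live, CD45-intermediate and CD11b-high. Each library was made from slices that were pooled before sorting, 3 by the labels and 2 to 3 by the paper. The pups behind a pool were not named in the labels, so slices of 1 pup may lie in several libraries, and p-values measure the spread between these libraries only.

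TNF is a secreted cytokine that binds TNFR1 and TNFR2 (Tnfrsf1a and Tnfrsf1b), whose adaptor proteins activate the IkB kinase complex and release NF-kB into the nucleus, where it switches on inflammatory genes and its own inhibitors. GM-CSF binds a receptor of a specific alpha chain (Csf2ra) and the shared beta chain (Csf2rb), which activates JAK2 and STAT5 and is known for driving growth and differentiation of macrophages, granulocytes and dendritic cells. Microglia, the resident macrophages of the brain, carry the receptors of both and change state in inflamed tissue.

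Sequencing gave 5973364 to 8757662 gene-assigned reads in the TNF libraries and 6123220 to 8699953 in the GM-CSF libraries, and the groups overlapped in depth. Levels are given as CPM, counts relative to the library total, scaled by TMM, a set of factors that equalises the bulk of genes between libraries. Those factors did not overlap between groups (0.935 to 0.987 with TNF, 1.05 to 1.10 with GM-CSF), and scaling by total counts instead moved the median over all genes tested, on the log2 scale, from -0.02 to -0.19. The 10 microglia markers were all tested, and their summed level was 13993 to 17563 CPM with TNF, 18700.5 to 20329 CPM with GM-CSF and 24991 to 33876 CPM in medium. The 2 genes behind the sort gate were not called between the cytokines. Ptprc, which encodes CD45, spanned 280.1 to 531 CPM with TNF (median 408), 232 to 423 CPM with GM-CSF (median 284) and 312 to 471 CPM in medium (median 364), for a log2 difference of 0.37 ± 0.11 SE (adjusted p = 0.00851). Itgam, which encodes CD11b, spanned 178 to 325 CPM with TNF (median 289), 214 to 341 CPM with GM-CSF (median 294) and 211 to 277 CPM in medium (median 253), for a log2 difference of -0.11 ± 0.10 SE (adjusted p = 0.419). Summed astrocyte markers were 28.3 to 102 CPM with TNF and 43.1 to 85.7 CPM with GM-CSF, with none of 9 tested called. Ly6g, Elane, Cd8a, Ncr1 and Tek had no count in any of the 29 libraries, but other markers of their lists did. Neutrophil markers summed to 2.11 to 113 CPM with TNF, 1.08 to 42.8 CPM with GM-CSF and 0.134 to 14 CPM in medium. Medians of summed monocyte markers were 2660, 2145 and 962 CPM in the same order, and of lymphocyte markers 19.6, 22.3 and 40.4 CPM. No tested marker of these 3 lists was called between the cytokines. Summed oligodendrocyte-lineage markers were 273 to 523 CPM with TNF against 177 to 299 CPM with GM-CSF, and 3 of the 6 tested (Mag, Cnp, Cspg4) were higher with TNF. Of the 5 endothelial markers tested, Kdr and Esam were higher with TNF, at means of 8.72 and 3.53 CPM. Pecam1, Flt1 and Egfl7 had the opposite sign with no call (log2 fold changes of -0.71, -0.53 and -0.56). Summed endothelial markers overlapped, at 13.4 to 36.3 CPM with TNF and 12.4 to 27.6 CPM with GM-CSF. The part of these markers in the results was not tested. In sorted bulk samples, fewer cells of a type and less RNA per cell cannot be told apart.

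The 2 cytokine states differed in about as many genes upward as downward, with the larger differences on the TNF side. Of 11313 genes tested, 1833 (16.2%) differed by more than 1.5-fold at an adjusted p under 0.05 in edgeR's quasi-likelihood test. Of these, 933 (8.25%) were higher with TNF and 900 (7.96%) higher with GM-CSF. Differences beyond 2 on the log2 scale were found for 222 genes on the TNF side and 54 on the GM-CSF side, and beyond 3 for 117 and 13. All 11 TNF libraries lay above every GM-CSF library for 530 of the 933 genes, and below every one for 260 of the 900. The genes were called from the same libraries, so this separation follows in part from the call. It was not counted over all 11313 genes. With total counts in place of TMM, 694 genes were higher with TNF and 1514 higher with GM-CSF, so the division depended on the scaling, while no gene was called in the opposite direction. Within the libraries whose titles carry the codes 1A or 1B, 873 genes were higher with TNF and 800 with GM-CSF, and within codes 2A or 2B 758 and 679.

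**Figure D1:**
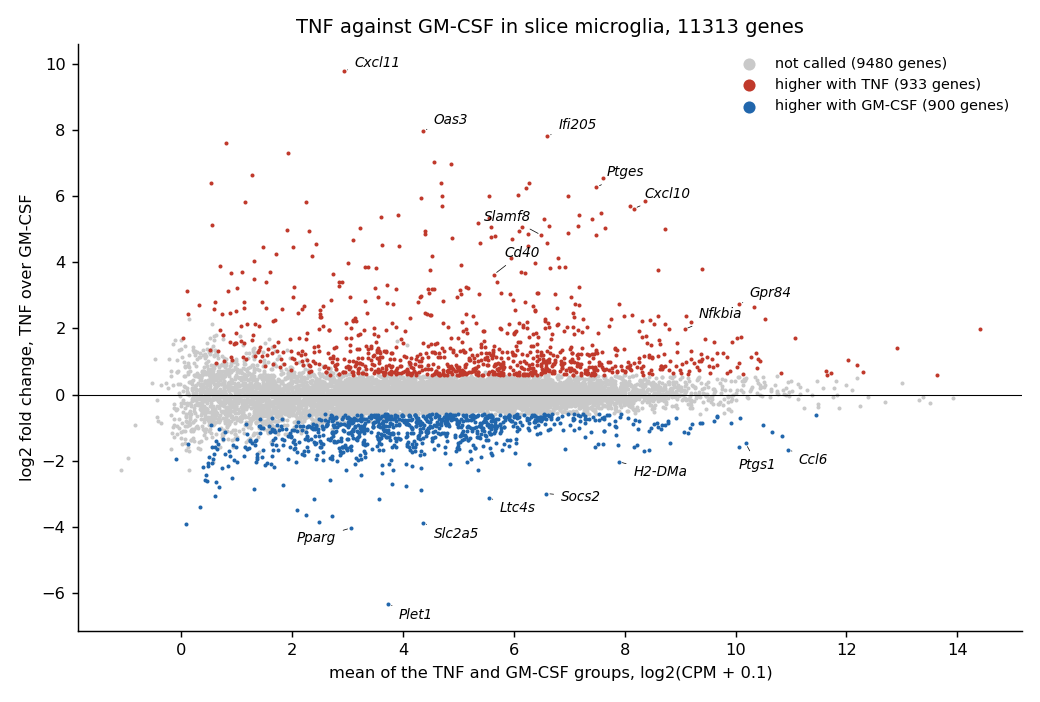
Each point is 1 of the 11313 genes tested, with its mean level over the TNF and GM-CSF groups on the x axis (log2 of CPM plus 0.1) and its log2 fold change, TNF over GM-CSF, on the y axis. Red genes were called higher with TNF (933), blue genes higher with GM-CSF (900) and grey genes were not called; large differences are mostly red. Cxcl11 had no count in any GM-CSF library, so its fitted value is not a measured fold.

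On the TNF side Nfkbia, Cxcl16 and Isg15 were among the genes of smallest p. Cxcl16, a transmembrane chemokine that attracts CXCR6-bearing lymphocytes, spanned 834 to 1011 CPM with TNF (median 940.2), 160.5 to 221 CPM with GM-CSF (median 179) and 212 to 309 CPM in medium (median 258), for a log2 difference of 2.38 ± 0.07 SE (adjusted p = 8.78e-24), where differences are TNF over GM-CSF. Nfkbia, the IkB-alpha inhibitor that is itself an NF-kB target, spanned 779 to 994 CPM with TNF (median 845), 184 to 249 CPM with GM-CSF (median 219.8) and 180.1 to 263 CPM in medium (median 209), for a log2 difference of 1.97 ± 0.07 SE (adjusted p = 3.43e-22). The mean Nfkbia level with GM-CSF differed from that in medium by 0.03 on the log2 scale, and only TNF was called against medium. Isg15, a ubiquitin-like protein induced by interferon, spanned 212 to 424 CPM with TNF (median 278), 3.68 to 10.2 CPM with GM-CSF (median 6.23) and 6.94 to 22.3 CPM in medium (median 14), for a log2 difference of 5.43 ± 0.20 SE (adjusted p = 4.79e-21). Slamf8, a SLAM-family surface receptor of myeloid cells, was at 3.55 to 10.8 CPM (median 4.7) with GM-CSF and 147 to 238 CPM (median 169.9) with TNF (log2 fold change 4.82 ± 0.18 SE, adjusted p = 5.34e-21). Gpr84, a receptor for medium-chain fatty acids that marks inflamed microglia, spanned 1566 to 2295 CPM with TNF (median 1809.8), 217 to 360.1 CPM with GM-CSF (median 264) and 167 to 318 CPM in medium (median 240.5), for a log2 difference of 2.74 ± 0.11 SE (adjusted p = 2.68e-20). For these 5 genes every TNF library exceeded every GM-CSF library. Tor3a, an interferon-responsive torsin ATPase, Marcksl1, an actin-regulating MARCKS-like protein, Sod2, mitochondrial superoxide dismutase, Cd14, the co-receptor for endotoxin, and Phf11b completed the 10 smallest p-values, with log2 fold changes of 2.27, 2.40, 2.38, 1.72 and 4.13.

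On the GM-CSF side Ltc4s, Socs2 and H2-DMa had the smallest p-values. Ltc4s, which makes leukotriene C4, spanned 6.52 to 13.5 CPM with TNF (median 9.86), 56.5 to 102 CPM with GM-CSF (median 85.4) and 123 to 196 CPM in medium (median 149), for a log2 difference of -3.12 ± 0.13 SE (adjusted p = 2.92e-20). Socs2, a STAT5-induced inhibitor of cytokine signalling, spanned 16.9 to 27.6 CPM with TNF (median 21.3), 146 to 192 CPM with GM-CSF (median 168) and 2.33 to 8.86 CPM in medium (median 5.74), for a log2 difference of -2.99 ± 0.13 SE (adjusted p = 1.96e-19). H2-DMa, the alpha chain of the chaperone that loads peptide on MHC class II, spanned 71.1 to 109.6 CPM with TNF (median 91.6), 267 to 451 CPM with GM-CSF (median 385) and 122 to 175 CPM in medium (median 141), for a log2 difference of -2.03 ± 0.09 SE (adjusted p = 5.04e-19). In each of the 3 genes the groups did not overlap, but their reference levels differed: medium was highest for Ltc4s, lowest for Socs2 and between the cytokines for H2-DMa. Fcgr3, a low-affinity receptor for IgG, Fcgrt, the neonatal Fc receptor, P2ry13, a receptor for ADP, B4galnt1, a ganglioside synthase, Ptgs1, the constitutive cyclooxygenase, Slco2b1, an organic anion transporter, and Coro2a, a coronin, completed the 10, with log2 fold changes of -1.13, -1.53, -1.68, -1.28, -1.47, -1.47 and -1.67.

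The 3 genes of smallest p on each side that RefSeq's promoter table (GRCm38.p6) holds are shown with 250 bases before and 50 bases after an annotated start, since TNF and GM-CSF act through factors that bind known short motifs. Capitals mark every match, on either strand, to the NF-kB consensus, to the core of the interferon-stimulated response element (ISRE, GAAANNGAA), to the STAT motif GAS (TTCNNNGAA), to E2F motifs (TTTGGCGC or TTTCCCGC) or to the sterol response element (TCACNCCAC).
Nfkbia, chr12:55492598-55492897, minus strand: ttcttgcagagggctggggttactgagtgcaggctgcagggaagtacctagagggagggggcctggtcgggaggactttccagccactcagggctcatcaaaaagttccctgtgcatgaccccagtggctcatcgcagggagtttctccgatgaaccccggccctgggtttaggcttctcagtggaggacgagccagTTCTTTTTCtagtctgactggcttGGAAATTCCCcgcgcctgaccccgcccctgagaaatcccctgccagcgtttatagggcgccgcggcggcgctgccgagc
Isg15, chr4:156200769-156201068, minus strand: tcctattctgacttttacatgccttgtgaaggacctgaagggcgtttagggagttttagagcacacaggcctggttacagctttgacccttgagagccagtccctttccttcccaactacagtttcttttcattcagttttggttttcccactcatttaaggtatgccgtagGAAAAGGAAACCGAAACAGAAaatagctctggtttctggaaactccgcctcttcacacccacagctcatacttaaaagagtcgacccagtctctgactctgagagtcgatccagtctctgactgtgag
Slamf8, chr1:172590519-172590818, minus strand: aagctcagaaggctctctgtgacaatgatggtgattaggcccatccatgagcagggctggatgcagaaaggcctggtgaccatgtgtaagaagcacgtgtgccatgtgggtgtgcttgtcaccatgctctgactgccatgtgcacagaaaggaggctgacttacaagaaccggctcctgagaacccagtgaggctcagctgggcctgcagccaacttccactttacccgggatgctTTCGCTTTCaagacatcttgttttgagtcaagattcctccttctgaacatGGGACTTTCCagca
Ltc4s, chr11:50238483-50238782, minus strand: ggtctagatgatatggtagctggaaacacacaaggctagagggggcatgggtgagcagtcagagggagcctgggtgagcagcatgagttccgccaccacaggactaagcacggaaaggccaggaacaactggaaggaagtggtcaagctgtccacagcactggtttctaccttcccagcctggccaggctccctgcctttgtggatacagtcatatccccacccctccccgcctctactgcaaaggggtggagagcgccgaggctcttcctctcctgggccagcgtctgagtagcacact
H2-DMa, chr17:34122582-34122881, plus strand: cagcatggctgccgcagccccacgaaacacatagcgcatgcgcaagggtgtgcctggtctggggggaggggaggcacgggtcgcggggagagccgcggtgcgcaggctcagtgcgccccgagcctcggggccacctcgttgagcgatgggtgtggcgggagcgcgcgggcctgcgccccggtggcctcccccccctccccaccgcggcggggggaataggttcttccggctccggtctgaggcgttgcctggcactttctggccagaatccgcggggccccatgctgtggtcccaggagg
Fcgr3, chr1:171059354-171059653, minus strand: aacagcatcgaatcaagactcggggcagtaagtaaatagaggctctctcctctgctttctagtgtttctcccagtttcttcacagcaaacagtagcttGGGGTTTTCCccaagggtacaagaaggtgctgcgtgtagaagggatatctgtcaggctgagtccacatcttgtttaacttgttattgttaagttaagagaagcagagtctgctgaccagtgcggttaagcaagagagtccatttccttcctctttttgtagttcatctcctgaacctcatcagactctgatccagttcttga
The Isg15 window held 3 overlapping ISRE cores between 78 and 58 bases before the start, those of Nfkbia and Slamf8 each held 1 NF-kB match and 1 ISRE core, Fcgr3 held 1 NF-kB match, and the Ltc4s and H2-DMa windows held none of the motifs. The table lists 2 starts for H2-DMa and for Fcgr3, of which the one nearest the GENCODE gene start was taken, at 3291 and 5532 bases from it.

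A promoter was in the table for 8875 of the 11313 genes tested. The NF-kB consensus was found in 17.5% of promoters of genes higher with TNF, 9.34% of those higher with GM-CSF and 10% of all. The ISRE core was found in 16.4%, 6.03% and 7.32% in the same order, and in 35.1% of the 74 promoters of genes that TNF raised and GM-CSF lowered. The GAS motif, which STAT5 can bind, was found in 9.58%, 6.47% and 6.82%. E2F motifs had the opposite order, with 1.5%, 7.18% and 3.36%. By gene list, the ISRE core was held by 65.7% of 35 promoters of interferon-induced effectors, the NF-kB consensus by 45.5% of 22 promoters of the NF-kB list, and an E2F motif by 33.3% of 30 promoters of DNA replication genes. These shares are descriptions of letters in a 300-base window, not of binding.

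Set against medium, TNF was the cytokine that had moved most genes of either side. Among the 933 genes higher with TNF, 466 (49.9%) had risen with TNF alone, 105 had fallen with GM-CSF alone, and 91 had both risen with TNF and fallen with GM-CSF. Among the 900 genes higher with GM-CSF, 471 (52.3%) had fallen with TNF alone, 135 had risen with GM-CSF alone, and 9 had risen with GM-CSF and fallen with TNF. Both cytokines moved 54 and 94 genes of the 2 sides in the same direction by unequal amounts, of which 51 rose on the TNF side and 82 fell on the GM-CSF side. The remaining 217 and 191 genes were called against medium for neither cytokine. The 2 medium contrasts share the same 9 medium libraries, so these classes are a description. They moved with the setting: 198 and 49 genes were in the opposite class with no fold limit against medium, and 72 and 28 with total counts.

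**Figure D2:**
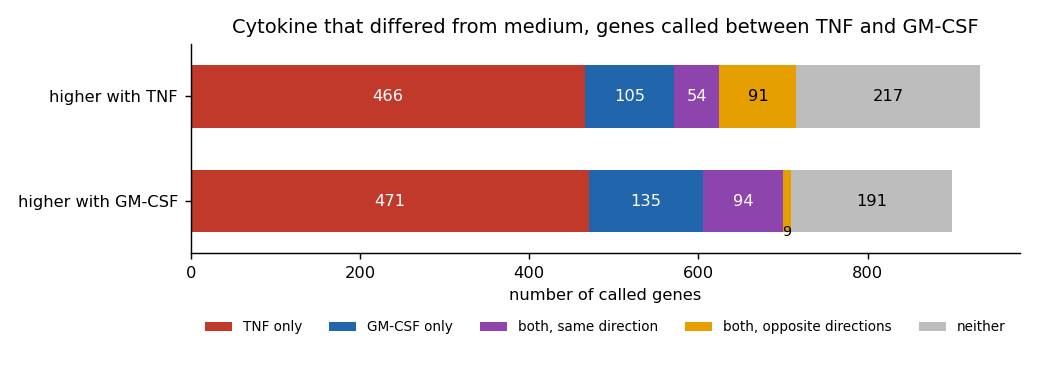
Bars count the 933 genes called higher with TNF and the 900 called higher with GM-CSF, divided by which cytokine was also called against the medium libraries. Red, TNF alone, is the largest class on both sides (466 and 471), and the class moved in opposite directions, orange, is 91 on the TNF side and 9 on the GM-CSF side.

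Of the 91 genes that TNF raised and GM-CSF lowered, 26 were interferon-induced effectors. Usp18, a protease that removes ISG15 and dampens interferon signalling, spanned 274 to 557 CPM with TNF (median 348), 4.42 to 16.1 CPM with GM-CSF (median 7.78) and 8.53 to 28 CPM in medium (median 15.8). It rose by 4.33 with TNF and fell by 1.17 on the log2 scale with GM-CSF. Xaf1, a pro-apoptotic interferon-induced protein, and Cd82, a tetraspanin, behaved likewise, with 2.96 and 0.87 for TNF over medium and -1.17 and -1.08 for GM-CSF over medium. In the other orientation, Tgfa, a ligand of the EGF receptor, spanned 8.46 to 24.8 CPM with TNF (median 18), 42.2 to 65.1 CPM with GM-CSF (median 58.2) and 19.4 to 59.3 CPM in medium (median 34.7), and its log2 fold changes over medium were -1.09 with TNF and 0.62 with GM-CSF. Siglecf, a sialic acid receptor known from alveolar macrophages and eosinophils, spanned 1.61 to 13.6 CPM with TNF (median 5.55), 25 to 45.7 CPM with GM-CSF (median 31.1) and 4.71 to 30.6 CPM in medium (median 20.4). Rras2, a small GTPase, Dtl, which targets replication factors for destruction, and Ezh2, the histone H3 lysine methyltransferase of Polycomb, were the other members of this orientation named by the rule, with log2 fold changes of -1.94, -1.38 and -1.26 between the cytokines. For Tgfa, Siglecf, Rras2 and Dtl no TNF library reached a GM-CSF library, while 1 TNF library overlapped for Ezh2.

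**Figure D3:**
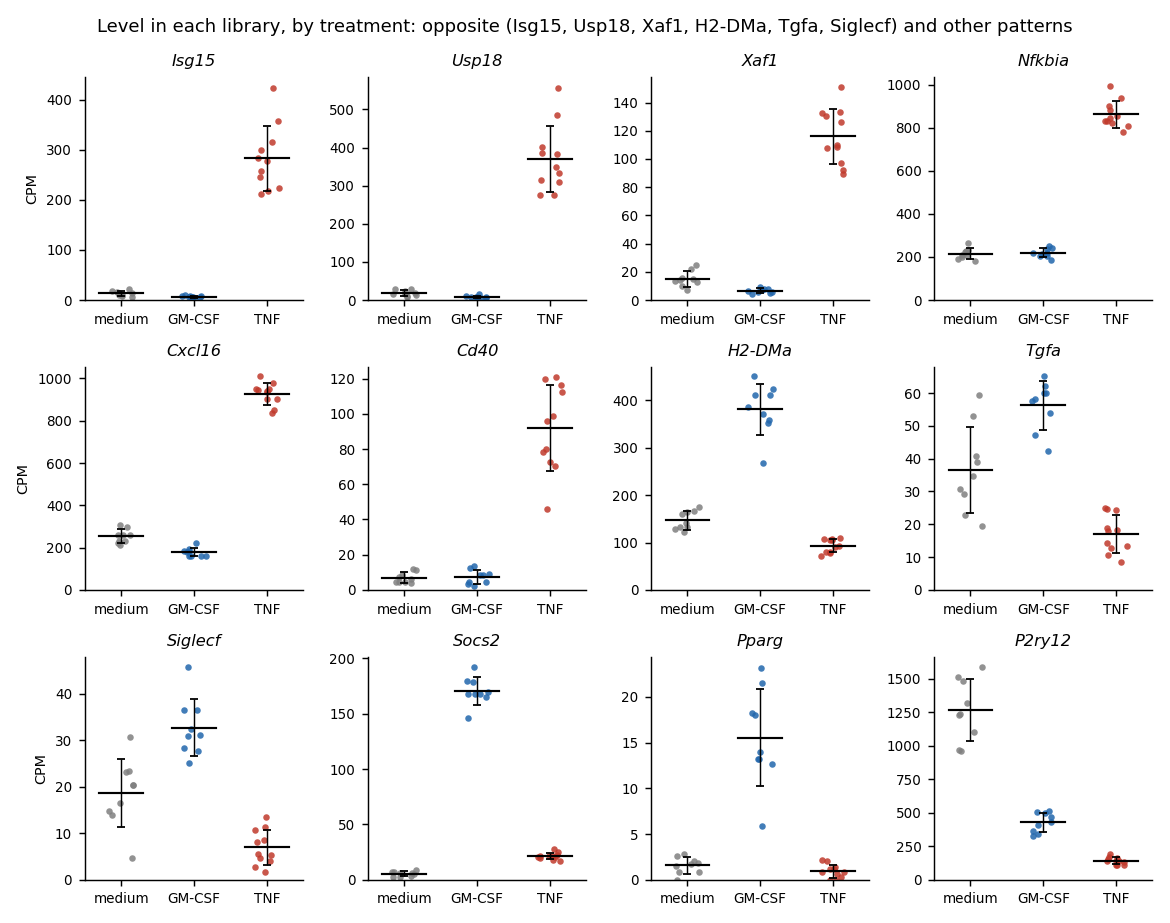
CPM in each library (y axis, from 0) for 12 genes by treatment: medium in grey (9 libraries), GM-CSF in blue (9) and TNF in red (11), with the mean as a line and 1 SD as error bars. Medium lies between the cytokines for Isg15, Usp18, Xaf1, H2-DMa, Tgfa and Siglecf, beside GM-CSF for Nfkbia, and highest for P2ry12.

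The interferon-induced effectors, which restrict viruses at many steps, differed in 1 direction. All 46 of the 46 members tested were higher with TNF, with a median log2 fold change of 4.31 beside -0.02 for all genes tested, and the summed level of the list was 7187 to 12731 CPM with TNF, 885 to 1198 CPM with GM-CSF and 822 to 1649 CPM in medium. Of these, 26 had fallen with GM-CSF as well as risen with TNF. This list, like the others, was written with earlier results of these data known. Oas3, which makes the activator of RNase L, spanned 18 to 65.9 CPM with TNF (median 36.2), 0 to 0.582 CPM with GM-CSF (median 0) and 0 to 2.8 CPM in medium (median 0.684). Mx1, a dynamin-like antiviral GTPase, spanned 30.1 to 64.2 CPM with TNF (median 47.5), 0 to 1.19 CPM with GM-CSF (median 0.131) and 0 to 6.79 CPM in medium (median 3.47). Ifi205, of the interferon-inducible p200 family, spanned 112 to 312 CPM with TNF (median 174), 0 to 3.42 CPM with GM-CSF (median 0.491) and 0 to 2.63 CPM in medium (median 0.65), and its GM-CSF and medium levels overlapped. Bst2, tetherin, which holds budding virus at the membrane, had a higher base level and a smaller log2 fold change (441 to 820.2 CPM with TNF, 119 to 172 CPM with GM-CSF and 139 to 194 CPM in medium, log2 fold change 2.13 ± 0.09 SE, adjusted p = 2.36e-19). Slfn9 had the largest p of the list, with 2.82 to 29.3 CPM with TNF (median 19.2), 0.611 to 15.3 CPM with GM-CSF (median 10.2) and 1.75 to 20.2 CPM in medium (median 11.6), for a log2 difference of 1.09 ± 0.36 SE (adjusted p = 0.0197), and its call was lost within either pair of title codes.

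Upstream of these effectors, 7 of 15 tested interferon signalling and regulatory factors were higher with TNF and none with GM-CSF. Irf7, the factor that amplifies type I interferon, spanned 365 to 821 CPM with TNF (median 489), 3.06 to 16.5 CPM with GM-CSF (median 10.7) and 10.9 to 37.8 CPM in medium (median 23.2), for a log2 difference of 5.71 ± 0.25 SE (adjusted p = 1.35e-17). Stat2 and Irf9, subunits of the ISGF3 complex, had log2 fold changes of 3.07 and 1.29. Irf3, which is activated by phosphorylation, had 23.1 to 49.1 CPM with TNF (median 38.5), 27.4 to 55.2 CPM with GM-CSF (median 39.4) and 36.3 to 47.4 CPM in medium (median 43.5), and its groups overlapped fully (log2 fold change 0.00 ± 0.12 SE). Ifnb1, which encodes interferon-beta, did not pass the filter on low counts.

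The interferon-inducible GTPases, which coat pathogen vacuoles, were mostly higher with TNF. Of 13 tested, 10 were higher with TNF and 1 with GM-CSF, the latter near the 7.96% over all genes tested. Against medium, TNF raised 12 of the list and lowered none, and GM-CSF raised 5 and lowered 2. Gbp2 spanned 178 to 454 CPM with TNF (median 258), 0.975 to 13.3 CPM with GM-CSF (median 8.22) and 2.03 to 12.6 CPM in medium (median 4.34), for a log2 difference of 5.10 ± 0.31 SE (adjusted p = 4.55e-14), Irgm1 had a log2 fold change of 2.72, Irgm2 of 1.93 and Igtp of 1.88. Gbp7 had the opposite order, with 21.5 to 52.4 CPM with TNF (median 34.2), 63.1 to 141 CPM with GM-CSF (median 98.5) and 1.07 to 10.8 CPM in medium (median 5.11), for a log2 difference of -1.47 ± 0.23 SE (adjusted p = 3.59e-06). It rose with both cytokines, by 4.01 with GM-CSF and 2.54 with TNF over medium on the log2 scale, and TNF and GM-CSF libraries did not overlap. Gbp8, with 0 to 6.39 CPM with TNF (median 3.02), 0.764 to 4.07 CPM with GM-CSF (median 3.07) and 0 to 4.28 CPM in medium (median 0.598), was not called in any of these contrasts. Gbp genes lie in clusters of close paralogs, so reads could be divided between them.

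Of 27 NF-kB subunits, inhibitors and feedback genes tested, 14 were higher with TNF and none with GM-CSF, with a median log2 fold change of 0.77. Nfkbie, the IkB-epsilon inhibitor, spanned 131 to 200.3 CPM with TNF (median 143), 9.31 to 22.6 CPM with GM-CSF (median 18) and 17.4 to 39.5 CPM in medium (median 30.8), for a log2 difference of 3.09 ± 0.14 SE (adjusted p = 8.29e-19). Tnfaip3, the A20 ubiquitin editor that ends NF-kB signalling, spanned 179 to 278 CPM with TNF (median 231), 30.6 to 51.7 CPM with GM-CSF (median 40.9) and 41.2 to 92.5 CPM in medium (median 74.4), for a log2 difference of 2.46 ± 0.13 SE (adjusted p = 2.98e-17). Both had also fallen with GM-CSF against medium, by 0.74 and 0.75 on the log2 scale. Birc3, the cIAP2 ubiquitin ligase, spanned 98.4 to 134 CPM with TNF (median 119), 24 to 31.3 CPM with GM-CSF (median 26) and 20.5 to 36 CPM in medium (median 27.6), for a log2 difference of 2.11 ± 0.10 SE (adjusted p = 3.94e-19), and its GM-CSF and medium levels overlapped. Traf1, an adaptor of TNF receptors, and Tnip3, an A20-binding protein, named here after their values were seen, had log2 fold changes of 4.52 and 4.77. Ikbkb, the catalytic kinase of the pathway, had 42.3 to 87.8 CPM with TNF (median 71.1), 53.2 to 85.9 CPM with GM-CSF (median 67) and 51.6 to 88.8 CPM in medium (median 73.8), for a log2 difference of -0.02 ± 0.13 SE (adjusted p = 0.939).

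Receptors and ligands of the TNF superfamily were divided between the cytokines, with 7 of 14 tested higher with TNF and 3 higher with GM-CSF. Cd40, the receptor through which T cells license antigen-presenting cells, spanned 46 to 121 CPM with TNF (median 95.8), 2.29 to 13.7 CPM with GM-CSF (median 8.23) and 3.75 to 11.6 CPM in medium (median 6.19), for a log2 difference of 3.63 ± 0.27 SE (adjusted p = 2.16e-13). Fas, the death receptor, spanned 16.8 to 27.1 CPM with TNF (median 18.5), 1.52 to 5.52 CPM with GM-CSF (median 2.18) and 2.17 to 9.12 CPM in medium (median 4.52), and Tnfsf9, the 4-1BB ligand, spanned 47.7 to 81.6 CPM with TNF (median 64.4), 11.6 to 17.9 CPM with GM-CSF (median 13.9) and 5.83 to 16.9 CPM in medium (median 10). No TNF library overlapped GM-CSF for these 3 genes. Tnf itself spanned 65 to 109 CPM with TNF (median 92.9), 24.2 to 46.9 CPM with GM-CSF (median 42.1) and 18.9 to 37.9 CPM in medium (median 32.5), for a log2 difference of 1.19 ± 0.13 SE (adjusted p = 1.38e-09), a smaller difference. Tnfrsf13b, the TACI receptor for BAFF and APRIL, had the opposite order, with 18.4 to 48.5 CPM with TNF (median 35.1), 70 to 108 CPM with GM-CSF (median 87.8) and 61.2 to 103 CPM in medium (median 81.6), for a log2 difference of -1.37 ± 0.12 SE (adjusted p = 1.57e-11), and it fell with TNF against medium. Tnfrsf26, a decoy receptor, was also higher with GM-CSF (log2 fold change -0.96 ± 0.24 SE, adjusted p = 0.00162), as was Tnfsf8, the CD30 ligand, at a median of 4.67 CPM (log2 fold change -1.85 ± 0.67 SE, adjusted p = 0.0326). The Tnfsf8 call was lost without GM-CSF replicate 1 or 8 or TNF replicate 1 and within either pair of title codes, and the Tnfrsf26 call was lost within codes 1A and 1B. Of the 2 TNF receptors, Tnfrsf1b was higher with TNF (382 to 676 CPM with TNF, 250.2 to 349 CPM with GM-CSF and 329 to 469.9 CPM in medium, log2 fold change 0.78 ± 0.09 SE, adjusted p = 3.35e-09), whereas Tnfrsf1a was at 143 to 193 CPM with TNF (median 173), 113 to 159.8 CPM with GM-CSF (median 138) and 134 to 165 CPM in medium (median 146) and its log2 fold change of 0.32 was within the 1.5-fold limit.

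Of 18 chemokine ligands tested, 11 were higher with TNF and 1 with GM-CSF. Cxcl10, a CXCR3 ligand, spanned 494 to 668 CPM with TNF (median 536), 5.09 to 26.2 CPM with GM-CSF (median 12.7) and 2.74 to 18.5 CPM in medium (median 10.8), for a log2 difference of 5.62 ± 0.30 SE (adjusted p = 1.69e-15). Ccl5, a chemokine that attracts T cells and monocytes, spanned 80.5 to 237 CPM with TNF (median 113), 0.491 to 8.71 CPM with GM-CSF (median 1.18) and 0.868 to 8.17 CPM in medium (median 4.52), for a log2 difference of 6.04 ± 0.45 SE (adjusted p = 3.05e-12). Cxcl11, another CXCR3 ligand, had 7.95 to 23.8 CPM with TNF (median 15.3) and no count in any GM-CSF library, which makes it at least 348-fold higher with TNF against a floor of 3 counts over the GM-CSF group. The exception was Ccl6, a myeloid CCR1 ligand, with 583 to 1469 CPM with TNF (median 1055), 2302 to 3637 CPM with GM-CSF (median 2922) and 434 to 939 CPM in medium (median 637), for a log2 difference of -1.66 ± 0.17 SE (adjusted p = 3.64e-09). It rose with GM-CSF by 2.19 over medium on the log2 scale, and the cytokine groups did not overlap. Ccl3, another CCR1 ligand, spanned 294 to 570.1 CPM with TNF (median 415), 267 to 446 CPM with GM-CSF (median 366) and 211 to 409 CPM in medium (median 302), for a log2 difference of 0.09 ± 0.12 SE (adjusted p = 0.638).

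Chemoattractant receptors moved in both directions, with 3 of 12 tested higher on each side. Fpr1 and Fpr2, receptors for formylated bacterial and mitochondrial peptides, spanned 69.5 to 203 CPM (median 135) and 26.1 to 48.4 CPM (median 40.3) with TNF against 2.59 to 7.49 CPM (median 3.19) and 0 to 2 CPM (median 1.6) with GM-CSF, with log2 fold changes of 4.95 and 4.94. Ccrl2, an atypical receptor that binds chemerin, was also higher with TNF (2.68). Ccr1, the receptor of Ccl6, spanned 232 to 427 CPM with TNF (median 359), 609 to 908 CPM with GM-CSF (median 714) and 242 to 444 CPM in medium (median 300.2), for a log2 difference of -1.13 ± 0.11 SE (adjusted p = 2.95e-10), and it had risen with GM-CSF. C5ar2, the second receptor for complement C5a, was also higher with GM-CSF (log2 fold change -2.13 ± 0.24 SE, adjusted p = 7.12e-09) and had fallen with TNF against medium. C5ar1, the signalling C5a receptor, had the opposite sign (log2 fold change 0.50 ± 0.07 SE, adjusted p = 5.85e-07), at a size within the 1.5-fold limit. Cx3cr1, the receptor for neuronal fractalkine, fell with both cytokines to the same range, 1465 to 1993 CPM (median 1757) with TNF and 1527 to 2054 CPM (median 1723) with GM-CSF against 2477 to 3074 CPM (median 2706) in medium. C3ar1, Cmklr1, Cxcr4 and Ackr3 were not called between the cytokines.

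Of the 24 genes of MHC class I and peptide loading, 20 were higher with TNF and none with GM-CSF (median log2 fold change 1.23). H2-T23, the nonclassical Qa-1 heavy chain, spanned 294 to 627 CPM with TNF (median 366), 49.7 to 68.7 CPM with GM-CSF (median 63.9) and 101 to 162 CPM in medium (median 109), for a log2 difference of 2.75 ± 0.13 SE (adjusted p = 7.11e-19). Tap1, a subunit of the peptide transporter, spanned 186 to 389 CPM with TNF (median 257), 25.2 to 61.7 CPM with GM-CSF (median 53.9) and 56.8 to 88.9 CPM in medium (median 69), for a log2 difference of 2.29 ± 0.14 SE (adjusted p = 5.46e-16), and Tapbp, tapasin, spanned 934 to 1612 CPM with TNF (median 1203), 284 to 466 CPM with GM-CSF (median 385) and 545 to 701 CPM in medium (median 608). H2-T22 had a log2 fold change of 3.04. B2m, the light chain common to class I molecules, spanned 4818 to 6442 CPM with TNF (median 5435), 2294 to 2985 CPM with GM-CSF (median 2757) and 3333 to 4330.4 CPM in medium (median 3788), for a log2 difference of 1.04 ± 0.07 SE (adjusted p = 5.24e-15), with medium between the cytokines and neither called against it. Erap1, which trims peptides, had 61.5 to 111 CPM with TNF (median 88.5), 56.1 to 110.0 CPM with GM-CSF (median 85.6) and 56.6 to 96 CPM in medium (median 80.6), for a log2 difference of 0.08 ± 0.11 SE (adjusted p = 0.62).

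In the MHC class II pathway, 8 of 12 listed genes were tested, 2 were higher on each side and the others had no call. Higher with GM-CSF were 2 class II chaperone genes, H2-DMa as given above, and H2-DMb2, its beta chain partner, with 1.19 to 9.38 CPM with TNF (median 4), 29.7 to 40.9 CPM with GM-CSF (median 35.8) and 2.81 to 13 CPM in medium (median 6.18), for a log2 difference of -2.88 ± 0.25 SE (adjusted p = 1.31e-11). Its near copy H2-DMb1 spanned 96.6 to 148 CPM with TNF (median 121), 93.6 to 144 CPM with GM-CSF (median 132) and 83.1 to 136 CPM in medium (median 107), for a log2 difference of -0.05 ± 0.09 SE (adjusted p = 0.728), and reads of such close copies could have been divided between them. The class II beta chain H2-Ab1 was higher with TNF, with 124 to 240.3 CPM with TNF (median 183), 52.6 to 144 CPM with GM-CSF (median 95.3) and 79.9 to 207 CPM in medium (median 146), for a log2 difference of 0.95 ± 0.18 SE (adjusted p = 6.42e-05). Cd74, the invariant chain that guides class II molecules, also was (136 to 325 CPM with TNF, 87.8 to 166 CPM with GM-CSF and 55 to 125 CPM in medium, log2 fold change 0.81 ± 0.15 SE, adjusted p = 2.98e-05). H2-Oa and H2-Ob, which inhibit the chaperone, and Ifi30, the lysosomal thiol reductase, had log2 fold changes of 0.18, -0.48 and -0.05 with no call. H2-Aa, H2-Eb1, H2-Eb2 and the class II activator Ciita did not pass the filter on low counts.

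Costimulatory and checkpoint ligands were moved on both sides, with 3 of 11 tested higher with TNF and 2 with GM-CSF. Cd274, which encodes PD-L1, spanned 165 to 328 CPM with TNF (median 213), 79.6 to 156 CPM with GM-CSF (median 110.0) and 21 to 68.6 CPM in medium (median 53.5), for a log2 difference of 0.98 ± 0.17 SE (adjusted p = 1.27e-05), and it rose with both cytokines. Icosl and Lgals9, ligands of ICOS and TIM-3, had log2 fold changes of 1.04 and 1.23. Higher with GM-CSF were Vsir, the checkpoint VISTA (197 to 377 CPM with TNF, 484 to 577 CPM with GM-CSF and 626 to 1057 CPM in medium, log2 fold change -0.92 ± 0.09 SE, adjusted p = 3.28e-10), and Cd200r1, the inhibitory receptor for neuronal CD200 (26.1 to 56.8 CPM with TNF, 42 to 84.7 CPM with GM-CSF and 22.9 to 38.7 CPM in medium, log2 fold change -0.77 ± 0.14 SE, adjusted p = 2.68e-05). Vsir had fallen with both cytokines, further with TNF, whereas Cd200r1 had risen with GM-CSF. Cd80, Cd86 and Cd83 had no call between the cytokines, with log2 fold changes of 0.04, 0.56 and -0.10.

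Of 20 genes of the GM-CSF receptor and JAK-STAT5 targets tested, 3 were higher with GM-CSF and 6 with TNF. Cish, like Socs2 a STAT5 target that inhibits receptor signalling, spanned 1.26 to 6.33 CPM with TNF (median 3.81), 14.3 to 34.1 CPM with GM-CSF (median 20.6) and 0 to 1.09 CPM in medium (median 0.108), for a log2 difference of -2.38 ± 0.33 SE (adjusted p = 3.73e-07). Both rose with TNF too, by 1.99 (Socs2) and 3.39 (Cish) over medium on the log2 scale, but by less than with GM-CSF. Myc, the growth-promoting transcription factor, spanned 89.2 to 189 CPM with TNF (median 120.3), 195 to 346 CPM with GM-CSF (median 255) and 79.9 to 131 CPM in medium (median 98.6), for a log2 difference of -1.10 ± 0.11 SE (adjusted p = 1.66e-10), and it had no call for TNF against medium. Socs3, an inhibitor of STAT3 signalling, had the opposite order to Socs2, with 137 to 237 CPM with TNF (median 186), 48.3 to 101 CPM with GM-CSF (median 83) and 40.9 to 86.6 CPM in medium (median 67.3), for a log2 difference of 1.25 ± 0.14 SE (adjusted p = 3.03e-09). Bcl6, a transcriptional repressor that STAT5 is known to repress, spanned 26.7 to 68.1 CPM with TNF (median 42.8), 2.33 to 12 CPM with GM-CSF (median 6.28) and 46.5 to 74 CPM in medium (median 56.8), for a log2 difference of 2.82 ± 0.20 SE (adjusted p = 1.06e-13). It fell by 3.17 on the log2 scale with GM-CSF against medium, while TNF had no call. Among the receptor chains, Csf2rb rose with both cytokines and was at 265 to 355 CPM with TNF (median 286), 241 to 304 CPM with GM-CSF (median 284) and 108 to 139 CPM in medium (median 135), for a log2 difference of 0.18 ± 0.07 SE (adjusted p = 0.0394). Csf2ra was at 188 to 253 CPM with TNF (median 218), 138 to 214 CPM with GM-CSF (median 182) and 133 to 206 CPM in medium (median 180.0), for a log2 difference of 0.26 ± 0.08 SE (adjusted p = 0.0112). Csf2rb2, the close mouse-specific paralog of Csf2rb, was higher with TNF (log2 fold change 0.80 ± 0.10 SE, adjusted p = 4.77e-08).

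Genes of GM-CSF-grown macrophages and alternatively activated cells included Plet1 and Pparg, which had the largest log2 fold changes on the GM-CSF side among genes with a mean of at least 10 CPM there. Of 15 tested, 6 were higher with GM-CSF and 2 with TNF, with 8 of the 23 listed too low to test. Plet1, a surface glycoprotein of GM-CSF-grown macrophages and dendritic cells, spanned 0 to 2.11 CPM with TNF (median 0), 2.33 to 62.1 CPM with GM-CSF (median 26.8) and 0 to 0.834 CPM in medium (median 0), for a log2 difference of -6.33 ± 0.66 SE (adjusted p = 1.64e-09). Pparg, the nuclear receptor through which GM-CSF shapes alveolar macrophages, spanned 0 to 2.13 CPM with TNF (median 0.871), 5.91 to 23.2 CPM with GM-CSF (median 14) and 0 to 2.77 CPM in medium (median 1.75), for a log2 difference of -4.02 ± 0.45 SE (adjusted p = 3.68e-09). Even their lowest GM-CSF libraries lay above the highest TNF library, although Plet1 varied widely between GM-CSF libraries. Mrc1, the mannose receptor, spanned 8.74 to 54 CPM with TNF (median 28), 83.9 to 199 CPM with GM-CSF (median 112) and 48.3 to 149 CPM in medium (median 96.9), for a log2 difference of -2.08 ± 0.24 SE (adjusted p = 3.1e-08), and it had fallen with TNF rather than risen with GM-CSF. Mrc1 is also a marker of border macrophages, whose summed markers were 449 to 1278 CPM with TNF and 350 to 1001 CPM with GM-CSF, and Ms4a7 of the same list had the opposite order at means of 355 and 73.2 CPM. The part of such cells was not tested. Batf3, a transcription factor of cross-presenting dendritic cells, was at 0.761 to 4.18 CPM with TNF (median 2.51), 5.12 to 9.85 CPM with GM-CSF (median 6.63) and 3.59 to 7.15 CPM in medium (median 6.7), for a log2 difference of -1.36 ± 0.25 SE (adjusted p = 3.86e-05). Elovl7, a fatty acid elongase, Rnase2a, a secreted ribonuclease, and Slc2a5, the fructose transporter of homeostatic microglia, followed on this side, with log2 fold changes of -3.84, -3.65 and -3.88. Lpl, lipoprotein lipase, had 1513 to 3625 CPM with TNF (median 2854), 1922 to 3336 CPM with GM-CSF (median 2789) and 1437 to 2951 CPM in medium (median 2373), for a log2 difference of -0.02 ± 0.14 SE (adjusted p = 0.932).

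Eicosanoid genes moved in both directions, with 8 of 15 tested higher with GM-CSF and 3 with TNF. These enzymes turn arachidonic acid into prostaglandins, thromboxane and leukotrienes. TNF raised the inducible prostaglandin E2 route: Ptgs2, the inducible cyclooxygenase, spanned 13.9 to 47.1 CPM with TNF (median 20.1), 0.801 to 4.12 CPM with GM-CSF (median 2.49) and 0 to 5.68 CPM in medium (median 3.21), for a log2 difference of 3.31 ± 0.40 SE (adjusted p = 2.27e-08). Ptges, the inducible prostaglandin E synthase, spanned 233 to 483 CPM with TNF (median 331), 1.23 to 9.59 CPM with GM-CSF (median 4.12) and 2.49 to 5.89 CPM in medium (median 3.69), for a log2 difference of 6.27 ± 0.25 SE (adjusted p = 3.94e-19). Ptger4, a prostaglandin E2 receptor, spanned 136 to 187 CPM with TNF (median 166), 51.5 to 98.1 CPM with GM-CSF (median 74.2) and 40.1 to 77.3 CPM in medium (median 53.1), for a log2 difference of 1.11 ± 0.11 SE (adjusted p = 3.01e-10). Against this, Ptgs1 was lower with TNF, with 441 to 783 CPM with TNF (median 609.5), 1378 to 1958 CPM with GM-CSF (median 1709) and 1006 to 1515 CPM in medium (median 1317), for a log2 difference of -1.47 ± 0.09 SE (adjusted p = 4.88e-15), as was Tbxas1, thromboxane synthase, with 215 to 337 CPM with TNF (median 264), 487 to 580.3 CPM with GM-CSF (median 546) and 378 to 547 CPM in medium (median 466), for a log2 difference of -1.04 ± 0.07 SE (adjusted p = 2.75e-14). Alox5, the 5-lipoxygenase that starts leukotriene synthesis, was the member that GM-CSF raised, by 1.39 over medium on the log2 scale (101 to 171 CPM with TNF, 248 to 393 CPM with GM-CSF and 95.5 to 158 CPM in medium, log2 fold change -1.21 ± 0.09 SE, adjusted p = 8.28e-13). For these 6 genes, and for Ltc4s, no TNF library overlapped a GM-CSF library. Cysltr1, a leukotriene receptor, had 33.4 to 66.8 CPM with TNF (median 45.6), 33.5 to 71.2 CPM with GM-CSF (median 51.4) and 37.6 to 79 CPM in medium (median 48.4), for a log2 difference of -0.02 ± 0.15 SE (adjusted p = 0.937).

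Receptors for IgG differed in both directions. Fcgr1, the high-affinity activating receptor, spanned 417 to 638 CPM with TNF (median 532), 194 to 277 CPM with GM-CSF (median 242) and 165 to 258 CPM in medium (median 224), for a log2 difference of 1.16 ± 0.08 SE (adjusted p = 6.63e-14), with GM-CSF and medium at like levels. Fcgr4, an activating receptor for IgG2 subclasses, spanned 48 to 116 CPM with TNF (median 89), 37.9 to 60.9 CPM with GM-CSF (median 46.2) and 62.2 to 106 CPM in medium (median 73.4), for a log2 difference of 0.91 ± 0.12 SE (adjusted p = 2.9e-07), and here it was GM-CSF that had lowered it. Fcgr3 ran the other way, with 826 to 1191 CPM with TNF (median 1020.0), 1978 to 2404 CPM with GM-CSF (median 2225) and 1492 to 1696 CPM in medium (median 1650.3), and Fcgrt, which recycles IgG, was at 126 to 181 CPM with TNF (median 150.2), 324 to 517 CPM with GM-CSF (median 454) and 364 to 469 CPM in medium (median 419.7). In the list of phagocytic and scavenger receptors, which holds Fcgr1, Fcgr3 and Fcgr4 but not Fcgrt, 5 of 20 tested were higher with TNF and 7 with GM-CSF. Marco, a scavenger receptor for bacteria, rose with TNF to 15.7 to 192 CPM (median 60.9) against 0 to 5.97 CPM (median 1.21) with GM-CSF (log2 fold change 5.19 ± 0.74 SE, adjusted p = 2.27e-06), with a wide spread among TNF libraries. Gas6, the bridging ligand by which apoptotic cells engage TAM receptors, spanned 75.2 to 163 CPM with TNF (median 127), 306 to 410.1 CPM with GM-CSF (median 354) and 593 to 843 CPM in medium (median 660.0), for a log2 difference of -1.52 ± 0.10 SE (adjusted p = 2.11e-14). Itgb5 and Pros1, which also serve uptake of apoptotic cells, had log2 fold changes of -0.86 and -0.70. Cd36 had 159 to 310.1 CPM with TNF (median 194), 159 to 347 CPM with GM-CSF (median 206) and 117 to 304 CPM in medium (median 186), for a log2 difference of -0.09 ± 0.16 SE (adjusted p = 0.72).

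**Figure D4:**
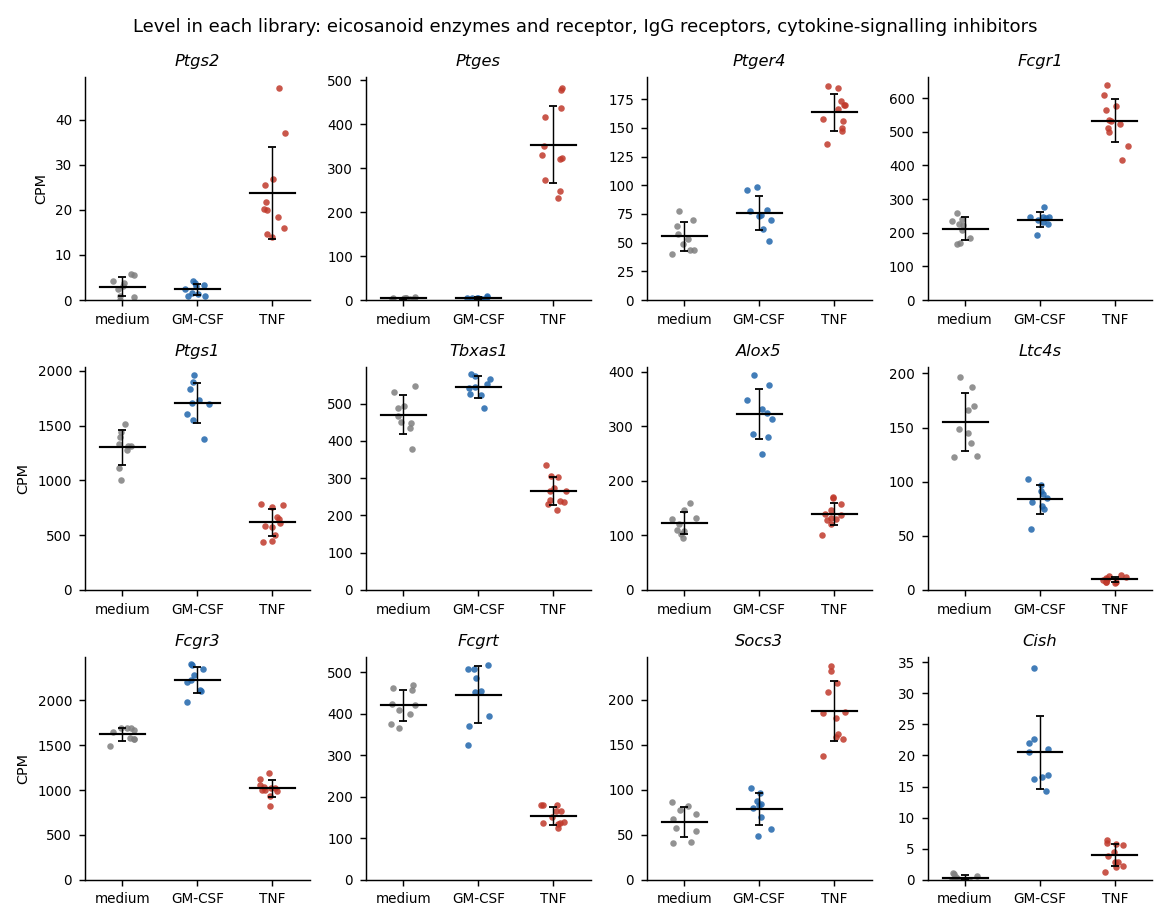
CPM in each library (y axis, from 0) for 12 genes by treatment: medium in grey, GM-CSF in blue and TNF in red, with the mean as a line and 1 SD as error bars. Ptgs2, Ptges, Ptger4, Fcgr1 and Socs3 are highest with TNF, whereas Ptgs1, Tbxas1, Alox5, Ltc4s, Fcgr3, Fcgrt and Cish are higher with GM-CSF than with TNF in every library.

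All 32 mitosis genes tested were higher with GM-CSF (median log2 fold change -1.41), and 31 of them had fallen with TNF while having no call for GM-CSF against medium. Top2a, the topoisomerase of dividing cells, spanned 12.8 to 40.9 CPM with TNF (median 29.3), 69.4 to 125 CPM with GM-CSF (median 105) and 67.1 to 117 CPM in medium (median 77.1), for a log2 difference of -1.76 ± 0.15 SE (adjusted p = 6.44e-12). Hmmr, a spindle-associated protein, spanned 4.06 to 23.3 CPM with TNF (median 10.6), 34.5 to 62.5 CPM with GM-CSF (median 44.5) and 24 to 62.9 CPM in medium (median 46.3), for a log2 difference of -2.08 ± 0.21 SE (adjusted p = 3.99e-10). Ccna2, the S and G2 phase cyclin, and Anln, anillin of the cleavage furrow, had log2 fold changes of -1.60 and -1.59. Bub1, a spindle checkpoint kinase, had the largest p of the list (log2 fold change -0.65 ± 0.23 SE, adjusted p = 0.0269), and its call was lost without TNF replicate 2 or 3 and within codes 2A and 2B.

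DNA replication genes also were higher with GM-CSF, 30 of 36 tested, but here GM-CSF had moved more of them. Of the 30, 14 had risen with GM-CSF alone, 8 had fallen with TNF alone, 1 had moved in opposite directions and 7 had no call against medium. Mcm7 and Mcm6, subunits of the replicative helicase, had risen with GM-CSF: Mcm7 spanned 35.3 to 70.1 CPM with TNF (median 43.8), 79.9 to 142 CPM with GM-CSF (median 115) and 51 to 96.5 CPM in medium (median 70.9), for a log2 difference of -1.18 ± 0.13 SE (adjusted p = 7.38e-09), and Mcm6 spanned 108 to 211 CPM with TNF (median 136), 228 to 312 CPM with GM-CSF (median 274) and 149.6 to 241 CPM in medium (median 173), for a log2 difference of -0.88 ± 0.10 SE (adjusted p = 8.24e-09). Rrm1, the large subunit of ribonucleotide reductase, had fallen with TNF, with 67.1 to 138 CPM with TNF (median 99.2), 192 to 273 CPM with GM-CSF (median 228) and 136 to 261 CPM in medium (median 167), for a log2 difference of -1.12 ± 0.11 SE (adjusted p = 2.95e-10). Lig1, the ligase that joins Okazaki fragments, had done likewise (-0.94). Rfc3, a clamp loader subunit, had 17.6 to 34.1 CPM with TNF (median 22.1), 23.1 to 35.8 CPM with GM-CSF (median 27.2) and 15.6 to 43.9 CPM in medium (median 22.7), for a log2 difference of -0.17 ± 0.16 SE (adjusted p = 0.447). Ribosome biogenesis, the supply side of growth, was higher with GM-CSF for 4 of 22 genes tested (9 with total counts) and with TNF for none. The 4 were Dkc1, which modifies ribosomal RNA (24.3 to 51.6 CPM with TNF, 51.9 to 87.3 CPM with GM-CSF and 23.6 to 33.7 CPM in medium, log2 fold change -1.02 ± 0.11 SE, adjusted p = 4.98e-09), and Wdr12, Nop58 and Nolc1, with log2 fold changes of -0.66, -0.66 and -0.75. All 4 had risen with GM-CSF alone. The DNA replication list had a median of -0.88 and the ribosome biogenesis list of -0.37, and both kept their sign under the other scalings tried.

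Of 26 homeostatic microglia genes tested, 14 were higher with GM-CSF, 1 with TNF and 11 had no call. Against medium, TNF lowered 21 and GM-CSF 17 of the 26. Of the 14, 10 had fallen with both cytokines and further with TNF. P2ry12, the ADP receptor that guides microglial processes, spanned 110.4 to 190.1 CPM with TNF (median 139), 324 to 513 CPM with GM-CSF (median 433) and 962 to 1591 CPM in medium (median 1238), for a log2 difference of -1.60 ± 0.11 SE (adjusted p = 1.48e-14). P2ry13 spanned 118 to 211 CPM with TNF (median 164), 422 to 693 CPM with GM-CSF (median 516) and 757 to 1212 CPM in medium (median 1046). In both genes the order was medium, GM-CSF, TNF, with no overlap between the cytokines. Olfml3, a secreted glycoprotein, spanned 366 to 824 CPM with TNF (median 528), 1393 to 1967 CPM with GM-CSF (median 1563) and 1604 to 3422 CPM in medium (median 2149), for a log2 difference of -1.57 ± 0.12 SE (adjusted p = 1.6e-13), with no call for GM-CSF against medium. Slc2a5 spanned 0.286 to 3.98 CPM with TNF (median 2.74), 19.2 to 75.2 CPM with GM-CSF (median 35.2) and 86.1 to 285 CPM in medium (median 182), for a log2 difference of -3.88 ± 0.28 SE (adjusted p = 3.31e-13). Csf1r, the receptor on which microglia depend for survival, had 3006 to 4107 CPM (median 3663) with TNF and 3123 to 4117 CPM (median 3619.5) with GM-CSF, a difference of 0.00 ± 0.07 (SE) on the log2 scale. Gpr84, described above as a marker of inflamed microglia, was the 1 member of the list on the TNF side.

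Of 18 lineage transcription factors tested, 3 were higher with GM-CSF (6 with total counts) and 1 with TNF. Maf, a factor of resident macrophages, spanned 28 to 42.6 CPM with TNF (median 32.4), 51 to 74.4 CPM with GM-CSF (median 71.2) and 87.7 to 128 CPM in medium (median 107), for a log2 difference of -1.03 ± 0.09 SE (adjusted p = 1.08e-11). Klf2, a factor that restrains myeloid activation, spanned 40 to 65.3 CPM with TNF (median 48.8), 60.8 to 158 CPM with GM-CSF (median 104) and 53.2 to 128 CPM in medium (median 110.0), for a log2 difference of -0.99 ± 0.14 SE (adjusted p = 4.34e-07), with medium in the range of GM-CSF. Sall3 was also higher with GM-CSF (log2 fold change -0.84 ± 0.22 SE, adjusted p = 0.00328), a call that was lost within codes 2A and 2B. Tgif1, a repressor of TGF-beta responses, was higher with TNF (114 to 179.7 CPM with TNF, 59.4 to 83.4 CPM with GM-CSF and 65.8 to 120.4 CPM in medium, log2 fold change 1.16 ± 0.09 SE, adjusted p = 3.92e-13). Of 21 genes of disease-associated microglia tested, 5 were higher with TNF and 1 with GM-CSF, and the 5 became 2 with total counts or upper quartile scaling. Cst7, cystatin F, spanned 849 to 1381 CPM with TNF (median 1061), 437 to 696 CPM with GM-CSF (median 545) and 435 to 711 CPM in medium (median 562), for a log2 difference of 0.89 ± 0.09 SE (adjusted p = 1.48e-09), and Igf1, insulin-like growth factor 1, spanned 238 to 577 CPM with TNF (median 324), 86.4 to 270.5 CPM with GM-CSF (median 166) and 246 to 501 CPM in medium (median 324), for a log2 difference of 0.99 ± 0.19 SE (adjusted p = 0.000143), which GM-CSF had lowered.

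**Figure D5:**
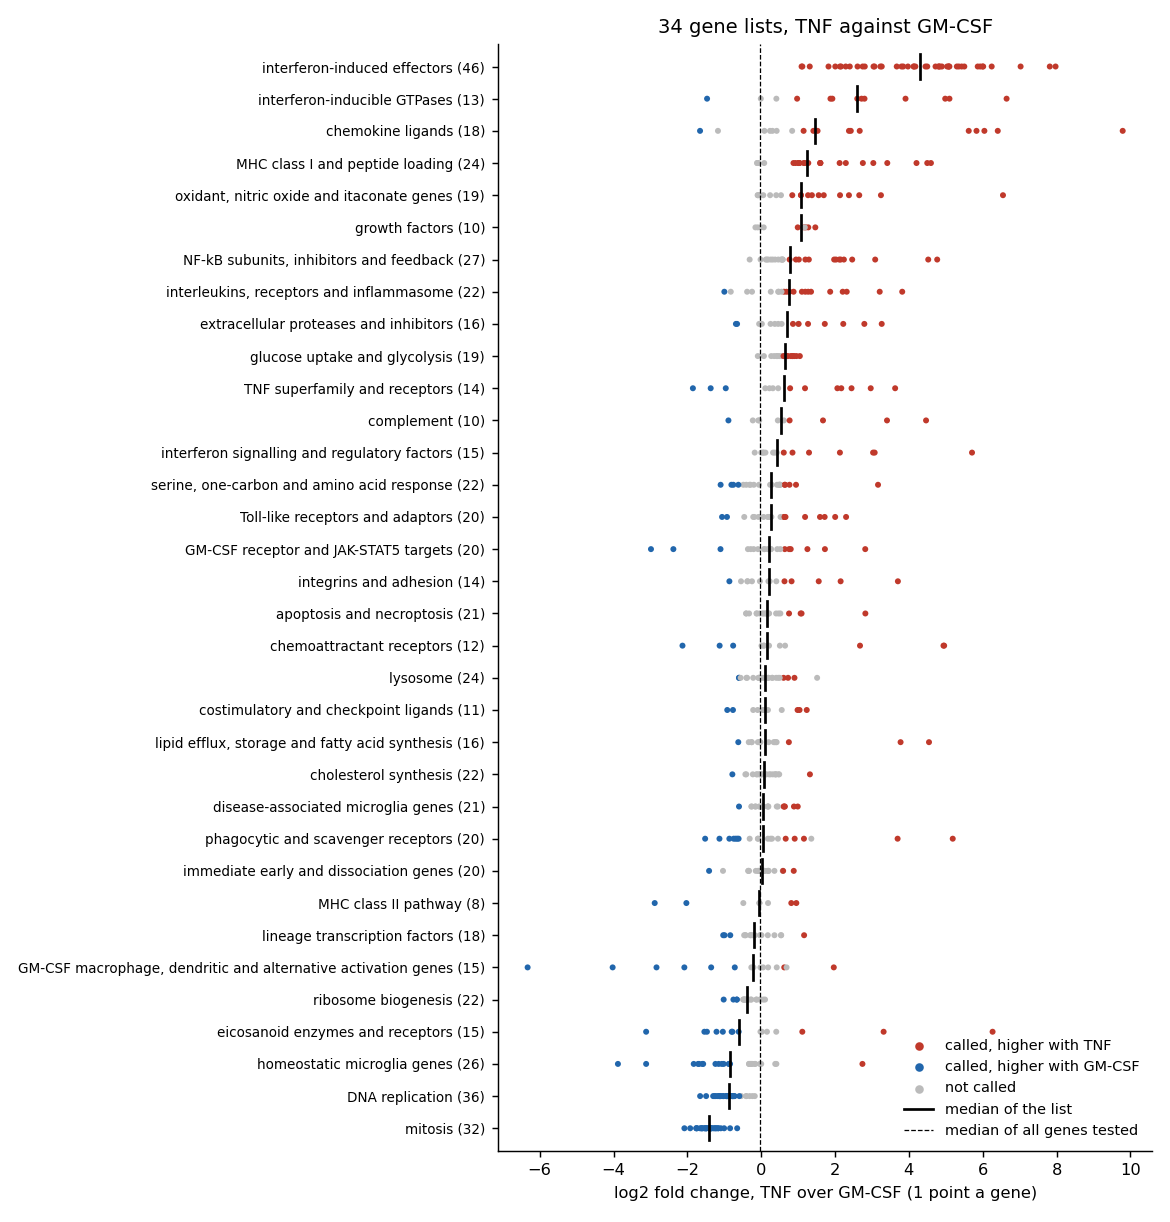
Each point is 1 tested gene of 34 functional lists, with the number tested in parentheses, at its log2 fold change, TNF over GM-CSF (x axis). Red points were called higher with TNF, blue higher with GM-CSF and grey not called, a black bar marks the median of a list and the dashed line the median of all genes tested (-0.02). Interferon-induced effectors (median 4.31) and mitosis genes (-1.41) are the ends of the order, and the eicosanoid and class II lists hold both colours.

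Of 19 genes of oxidants, nitric oxide and itaconate tested, 12 were higher with TNF and none with GM-CSF (median log2 fold change 1.08). Of these, 11 had risen with TNF alone, and none was called for GM-CSF against medium. Sod2 spanned 569 to 787 CPM with TNF (median 655), 98.5 to 154 CPM with GM-CSF (median 126) and 71 to 116 CPM in medium (median 85.3), for a log2 difference of 2.38 ± 0.09 SE (adjusted p = 2.02e-20). Ncf4, a cytosolic subunit of the NADPH oxidase, spanned 310.1 to 341 CPM with TNF (median 329.7), 104 to 142 CPM with GM-CSF (median 127) and 104 to 136 CPM in medium (median 116), for a log2 difference of 1.37 ± 0.06 SE (adjusted p = 6.39e-20). Gch1, which makes the cofactor of nitric oxide synthase, spanned 148 to 226 CPM with TNF (median 174), 27.3 to 61.3 CPM with GM-CSF (median 37.4) and 26.4 to 41.6 CPM in medium (median 31.4), for a log2 difference of 2.13 ± 0.12 SE (adjusted p = 6.63e-17), and Srxn1, sulfiredoxin, had a log2 fold change of 1.69. Acod1, which makes itaconate, Nos2, the inducible nitric oxide synthase, and Cybb, the catalytic NADPH oxidase subunit, named here after their values were seen, had log2 fold changes of 6.55, 3.24 and 2.65. Gclc, of glutathione synthesis, had 31.2 to 78.4 CPM with TNF (median 70.6), 56.7 to 71.9 CPM with GM-CSF (median 66.7) and 57.3 to 111 CPM in medium (median 77.4), for a log2 difference of 0.06 ± 0.12 SE (adjusted p = 0.765).

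Glucose uptake and glycolysis genes were higher with TNF for 11 of 19 tested and with GM-CSF for none, at small fold changes (median 0.65). Tpi1, triosephosphate isomerase, spanned 1495 to 1914 CPM with TNF (median 1677), 843 to 1136 CPM with GM-CSF (median 974) and 858 to 1121 CPM in medium (median 985), for a log2 difference of 0.80 ± 0.06 SE (adjusted p = 2.19e-13), and Hk3, a myeloid hexokinase, spanned 255 to 331 CPM with TNF (median 289), 133 to 194 CPM with GM-CSF (median 156) and 161 to 252 CPM in medium (median 211), for a log2 difference of 0.85 ± 0.08 SE (adjusted p = 2.8e-11). Aldoa, the aldolase of the pathway, had a log2 fold change of 0.72 that was not called with total counts, under which 6 genes of the list were called. Serine, one-carbon and amino acid genes moved in both directions, with 5 of 22 higher with TNF (3 with total counts) and 4 with GM-CSF. Slc7a11, the cystine importer, spanned 35.4 to 79.4 CPM with TNF (median 63.5), 3.19 to 12.2 CPM with GM-CSF (median 5.32) and 0.139 to 4.48 CPM in medium (median 1.78), for a log2 difference of 3.16 ± 0.27 SE (adjusted p = 1.08e-11), and Mthfd2, the mitochondrial folate enzyme, was higher with TNF by 0.77. Shmt1, the cytosolic serine hydroxymethyltransferase, spanned 8.9 to 20.7 CPM with TNF (median 12.1), 22 to 40.2 CPM with GM-CSF (median 26.6) and 2.46 to 14 CPM in medium (median 10.9), for a log2 difference of -1.10 ± 0.21 SE (adjusted p = 5.72e-05), and Psat1 and Slc1a5, of serine synthesis and glutamine uptake, had log2 fold changes of -0.81 and -0.76. Cholesterol synthesis did not separate the cytokines, with 1 of 22 tested called on each side. The GM-CSF-side member, Tm7sf2, a sterol reductase, lost its call without any 1 of 7 libraries. Among genes of lipid efflux and storage, Ch25h, which makes 25-hydroxycholesterol, spanned 582 to 1091 CPM with TNF (median 698), 29.3 to 109 CPM with GM-CSF (median 49.5) and 14 to 91.4 CPM in medium (median 34.9), for a log2 difference of 3.77 ± 0.31 SE (adjusted p = 3.95e-11), and Nr1h3, the oxysterol receptor LXR-alpha, spanned 2.93 to 16.5 CPM with TNF (median 9.89), 0 to 0.941 CPM with GM-CSF (median 0.394) and 0 to 1.84 CPM in medium (median 1.34), for a log2 difference of 4.54 ± 0.47 SE (adjusted p = 6.25e-10).

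Of 22 tested interleukin and inflammasome genes, 14 were higher with TNF and 1 with GM-CSF. Il1rn, the IL-1 receptor antagonist, spanned 119 to 246 CPM with TNF (median 191), 6.82 to 19.2 CPM with GM-CSF (median 12.7) and 4.57 to 19.4 CPM in medium (median 7.66), for a log2 difference of 3.82 ± 0.23 SE (adjusted p = 2.67e-15). Il18 spanned 42.4 to 69.1 CPM with TNF (median 56.5), 10.5 to 21.1 CPM with GM-CSF (median 16) and 12 to 25.3 CPM in medium (median 15.2), for a log2 difference of 1.87 ± 0.14 SE (adjusted p = 3e-13), Casp4, which senses cytosolic endotoxin, had a log2 fold change of 2.32 and Nlrp3, the inflammasome sensor, of 1.27. Il6ra, the IL-6 receptor, was the exception (18 to 38.9 CPM with TNF, 39.6 to 78.3 CPM with GM-CSF and 63.2 to 108 CPM in medium). Of 10 growth factor genes tested, 5 were higher with TNF and none with GM-CSF. Pdgfa spanned 61.2 to 77.5 CPM with TNF (median 73.5), 22.8 to 32.6 CPM with GM-CSF (median 26.7) and 26.3 to 44.4 CPM in medium (median 35.7), for a log2 difference of 1.47 ± 0.09 SE (adjusted p = 1.19e-15), and it had risen with TNF, whereas Pdgfb spanned 49 to 82.6 CPM with TNF (median 67.9), 22 to 33 CPM with GM-CSF (median 28) and 44 to 76.3 CPM in medium (median 61.2), for a log2 difference of 1.27 ± 0.12 SE (adjusted p = 2.98e-11), and it had fallen with GM-CSF. Vegfa, the angiogenic factor, had a log2 fold change of 1.21. Tgfb1, Csf1, Hbegf and Vegfb had values of 0.07, -0.16, -0.09 and -0.01 with no call, and Hbegf, a ligand of the EGF receptor, had risen with both cytokines against medium.

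Of 20 Toll-like receptor and adaptor genes tested, 8 were higher with TNF (5 with total counts) and 2 with GM-CSF. Tlr2, the sensor of bacterial lipopeptides, spanned 2077 to 3108 CPM with TNF (median 2511), 390.2 to 645 CPM with GM-CSF (median 498) and 477 to 888 CPM in medium (median 604), for a log2 difference of 2.30 ± 0.10 SE (adjusted p = 8.96e-20), and Tlr3, the sensor of double-stranded RNA, spanned 55.7 to 139.8 CPM with TNF (median 81.5), 11.9 to 36.4 CPM with GM-CSF (median 19.5) and 8.67 to 36.7 CPM in medium (median 19.7), for a log2 difference of 2.00 ± 0.20 SE (adjusted p = 2.74e-10). Ly86, the MD-1 partner of RP105, had the opposite order (779.9 to 1215 CPM with TNF, 1512 to 2200.5 CPM with GM-CSF and 1911 to 2625 CPM in medium, log2 fold change -0.93 ± 0.08 SE, adjusted p = 1.43e-11). In the complement list, 4 of 10 tested were higher with TNF and 1 with GM-CSF. C3, the central component, spanned 26.3 to 174 CPM with TNF (median 98.2), 6.4 to 13 CPM with GM-CSF (median 9.02) and 8.97 to 34.5 CPM in medium (median 20.8), for a log2 difference of 3.41 ± 0.32 SE (adjusted p = 2.37e-10), with C2 (1.67) and Cfb (4.46), which build the C3 convertases, on the same side. C1qa, C1qb and C1qc, the chains of C1q, had log2 fold changes of -0.08, -0.06 and -0.23 with no call, C1ra and C4b had 0.45 and 0.61, and Cfp, properdin, was at the edge of the threshold (log2 fold change 0.77 ± 0.30 SE, adjusted p = 0.0473) with a call lost in 12 of the 20 fits that left out 1 library. Among proteases, Mmp14, a membrane-bound collagenase, spanned 263 to 719 CPM with TNF (median 504), 75.1 to 190.0 CPM with GM-CSF (median 103) and 77.5 to 190.4 CPM in medium (median 105), for a log2 difference of 2.22 ± 0.20 SE (adjusted p = 1.78e-10), and Adam8 rose with both cytokines (789 to 1599 CPM with TNF, 279 to 789.9 CPM with GM-CSF and 113 to 279 CPM in medium, log2 fold change 1.27 ± 0.17 SE, adjusted p = 2.65e-07). Mmp12, the macrophage elastase, was higher with GM-CSF (371 to 837 CPM with TNF, 784 to 1172 CPM with GM-CSF and 336 to 992 CPM in medium, log2 fold change -0.65 ± 0.15 SE, adjusted p = 0.000596).

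Of 14 integrin and adhesion genes tested, 5 were higher with TNF, 1 with GM-CSF and 8 had no call. Icam1, the ligand of LFA-1, spanned 575 to 861 CPM with TNF (median 677), 123 to 195 CPM with GM-CSF (median 157) and 132 to 224 CPM in medium (median 179), for a log2 difference of 2.15 ± 0.09 SE (adjusted p = 8.34e-20), and Vcam1, the ligand of VLA-4, spanned 96.2 to 157 CPM with TNF (median 119.6), 3.68 to 28 CPM with GM-CSF (median 8.41) and 6.57 to 39.8 CPM in medium (median 16.7), for a log2 difference of 3.70 ± 0.30 SE (adjusted p = 1.36e-11). Itga5, the fibronectin receptor chain, had a log2 fold change of 1.56, and Cd44, the hyaluronan receptor, of 0.82. Selplg, the selectin ligand, was the 1 higher with GM-CSF (log2 fold change -0.86 ± 0.10 SE, adjusted p = 1.2e-08). Of 21 apoptosis and necroptosis genes tested, 4 were higher with TNF and none with GM-CSF. They included the survival gene Mcl1 (694 to 887 CPM with TNF, 317 to 430.2 CPM with GM-CSF and 409 to 502 CPM in medium, log2 fold change 1.09 ± 0.06 SE, adjusted p = 9.86e-17), Cflar, the inhibitor of caspase-8 (1.07), and Mlkl, the executioner of necroptosis (6.71 to 27.4 CPM with TNF, 1.06 to 5.38 CPM with GM-CSF and 0 to 4.16 CPM in medium, log2 fold change 2.82 ± 0.40 SE, adjusted p = 6.99e-07). Of 24 lysosomal genes tested, 3 were higher with TNF (1 with total counts) and 2 with GM-CSF. These counts were near the shares over all genes tested, 8.25% higher with TNF and 7.96% higher with GM-CSF. Ctsc, which activates serine proteases, was on the TNF side (5595 to 7551 CPM with TNF, 2898 to 3737 CPM with GM-CSF and 1577 to 2324 CPM in medium, log2 fold change 0.90 ± 0.07 SE, adjusted p = 3.4e-13). Immediate early genes, which also respond to tissue dissociation, were called for 2 of 20 on the TNF side and 1 on the GM-CSF side, again near those shares. Junb was on the TNF side (476 to 602 CPM with TNF, 251 to 329 CPM with GM-CSF and 281 to 401 CPM in medium, log2 fold change 0.88 ± 0.06 SE, adjusted p = 1.72e-13).

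Some genes separated the cytokines although neither moved them past the limits against medium. Besides B2m, Grina, an inhibitor of cell death of the TMBIM family, spanned 389 to 622 CPM with TNF (median 465), 192 to 251 CPM with GM-CSF (median 230.0) and 302 to 359 CPM in medium (median 339), for a log2 difference of 1.10 ± 0.07 SE (adjusted p = 1.04e-14). Gdi2, a regulator of Rab GTPases, spanned 411 to 538 CPM with TNF (median 475), 749 to 973 CPM with GM-CSF (median 875) and 586 to 783 CPM in medium (median 667), for a log2 difference of -0.86 ± 0.06 SE (adjusted p = 2.21e-13), and Idh2, the mitochondrial isocitrate dehydrogenase, spanned 68.7 to 123 CPM with TNF (median 83.4), 138 to 201 CPM with GM-CSF (median 171) and 110.4 to 156 CPM in medium (median 122), for a log2 difference of -0.91 ± 0.09 SE (adjusted p = 1.53e-10). In all 4 the medium median lay between those of the 2 cytokines, and no TNF library overlapped a GM-CSF library.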

How the data were processed

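RNA of sorted microglia was amplified with a SMART-Seq kit that does not mark strand, so reads of overlapping antisense genes cannot be told apart. The authors deposited raw read counts per gene, and the submitters' processing notes name STAR 2.7.0a, featureCounts of Subread 1.6.4 and mm10. All 55450 gene identifiers of the slice table were given symbols from GENCODE M21. The 29 slice libraries were grouped by their labels, no 2 held identical values, and every value was a whole number. The in vivo microglia and brain tissue libraries were not used.

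Genes passing filterByExpr of edgeR 4.0.16 (minimum count 10, minimum total 15) were scaled by TMM and fitted in 1 model with the 3 groups and no covariate by the quasi-likelihood test (R 4.3.3). The paper states that these data were pooled from several independent experiments, which the model did not include. The labels do not say which library came from which experiment. With the title code as a block, 1899 genes were called, 938 higher with TNF and 961 with GM-CSF. A call needed a Benjamini-Hochberg adjusted p under 0.05 and a fold over 1.5. All p-values are two-sided. The procedure was tested on simulated data. The common biological coefficient of variation was 0.281 and the typical (median) SE on the log2 scale was 0.16. With 5973364 to 9165485 counts in a library, low genes carry counting error as well. Alternatives used DESeq2 1.42.0 and limma 3.58.1 (voom), other scalings, filters and thresholds, title-code and replicate terms, Y-linked counts as a covariate, and each library left out in turn. Promoters were searched on both strands, and 14 promoters held an ISRE core and a GAS match that overlap.

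The comparison and the 34 gene lists were chosen with earlier results of these data known. Genes named were the 10 with the smallest p and the 5 with the largest log2 fold change on each side (mean of at least 10 CPM in the higher group), the 6 of smallest p in each orientation among genes called in opposite directions against medium, up to 4 called on each side of a list with its member of largest p (every member where 12 or fewer were tested), the 2 of smallest p on each side called against neither medium contrast, and the gate and receptor genes. Predicted genes were left out. Members named outside this rule are marked as chosen after their values were seen, and cell type markers come from their own lists. Some genes that the rule names are not reported here.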

Additional observations from a re-analysis of the deposited data

Results flagged for a closer look

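Within the GM-CSF group or the medium group, 1 library stood far from the other 8 for 38 gene and group pairs of genes named in the text, 24 in GM-CSF and 14 in medium. The measure was Dixon's ratio, the gap of the most extreme library to its neighbour divided by the range of the group. Over all 249 genes of the naming rule, 42 of 498 such groups (8.43%) stood out, where chance gives about 1 in 20 for normally distributed values. Low CPM values need not be so distributed, so that rate is only a guide. The TNF group, with 11 libraries, was not tested.

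A GM-CSF library was highest for Bst2 (0.499), Ccl5 (0.652), Ccrl2 (0.58), Cd80 (0.676), Cd86 (0.499), Cfp (0.506), Ch25h (0.601), Cish (0.58), Cxcl10 (0.582), Fas (0.527), Fcgr4 (0.533), Ifi205 (0.617), Itgb5 (0.555), Mlkl (0.519), Mmp14 (0.537), Psat1 (0.597), Selplg (0.579), Slc2a5 (0.563), Tgif1 (0.562), Usp18 (0.574), Vcam1 (0.729) and Vegfa (0.555), with Dixon's ratio in parentheses. A GM-CSF library was lowest for Cd14 (0.494) and Ifi30 (0.593).

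A medium library was highest for Cxcl11 (1), Fpr2 (0.663), H2-T23 (0.703), Marco (0.613), Mmp12 (0.545), Plet1 (0.821), Rfc3 (0.651), Rrm1 (0.497), Srxn1 (0.573), Tlr2 (0.498) and Tlr3 (0.514). A medium library was lowest for Batf3 (0.725), Grina (0.53) and Klf2 (0.51). Cxcl11 had counts in 1 medium library only, at 0.693 CPM in medium replicate 7.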

How the results depend on the processing

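Scaling and threshold set how many genes were counted. Of 193 named genes called between the cytokines, 165 were called alike in every fit at the same threshold, and no gene tested was called in the opposite direction in any of the 35 alternatives. With no fold limit 3486 genes were called, 1804 higher with TNF and 1682 with GM-CSF, and with a fold over 2 there were 978, 534 and 444. Genes higher with GM-CSF numbered 1514 with total counts in place of TMM and 1353 with no low-count filter. DESeq2 called 939 and 959 genes and limma-voom 937 and 994. The cause of these shifts was not tested.

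Among genes higher with TNF, total counts gave 52 moved by GM-CSF alone and 128 by neither, and dropping the fold limit against medium gave 89 moved the same way by both, 198 moved in opposite directions and 92 by neither. Among genes higher with GM-CSF, total counts gave 733 moved by TNF alone, 234 by GM-CSF alone, 28 in opposite directions and 423 by neither, and dropping the fold limit against medium gave 49 in opposite directions and 100 by neither. DNA replication genes higher with GM-CSF fell to 12 with a fold over 2. Members of the homeostatic list higher with TNF numbered 3 with no fold limit, Gpr84 among them. Glycolysis genes higher with TNF numbered 6 with total counts, 17 with no fold limit and 1 with a fold over 2. Beside the list counts given with their value under total counts, that scaling moved others. Higher with GM-CSF, chemokine ligands and adhesion genes went from 1 to 2 each, and DNA replication genes from 30 to 31. Class II, lysosomal and Toll-like genes went from 2 to 3 each, and serine and amino acid genes from 4 to 5. The other changes were in genes higher with TNF. Macrophage and immediate early genes went from 2 to 1 each, and lipid genes from 3 to 2. Complement and apoptosis genes went from 4 to 3 each, and phagocytic and adhesion genes from 5 to 4 each. JAK-STAT5 genes went from 6 to 4 and interferon signalling genes from 7 to 6. NF-kB genes went from 14 to 13 and interleukin genes from 14 to 12.

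Leaving out 1 library at a time gave 1782 to 1861 called genes, 875 to 946 higher with TNF and 867 to 967 higher with GM-CSF. The interferon effectors stayed at 46, NF-kB genes at 13 to 16, class I genes at 20, DNA replication genes at 29 to 30, mitosis genes at 31 to 32, homeostatic genes higher with GM-CSF at 14, glycolysis genes at 10 to 12 and oxidant genes at 12 to 13.

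Pairing was checked by replicate number only. Deviations of TNF and GM-CSF libraries with the same number had a mean correlation of 0.04 (-0.04 to 0.13 over 9 numbers), and 1 of the 9 GM-CSF libraries correlated best with the TNF library of its number. Of these 9 pairs, 4 shared a title code, so the check cannot show whether libraries were paired in another way. Mean correlation was 0.07 between libraries of the same title code and -0.02 between those of other codes. With the replicate block 1828 genes were called, 925 higher with TNF and 903 with GM-CSF. Genes of few counts, such as Plet1 and Cish, are limited by depth.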
